A study of Mus musculus with 8 samples.

Results

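The genes described here are 9 mouse genes of iron storage, iron uptake and export, heme breakdown and iron sensing: Fth1, Ftl1, Slc40a1, Tfrc, Slc11a2, Slc39a14, Hmox1, Aco1 and Ireb2. They are the rows of the raw count table with these gene symbols, 9 of 18088 genes, and all 9 were among the 17972 genes that passed the filter on low counts. They were chosen by their function and because Fth1 was known, from these same libraries, to be among the most abundant genes that were higher after Erk3 silencing. The difference between the groups for these 9 genes is therefore given as a description with no p-value. The intervals given for these genes come from the same contrast that chose them. So do the calls, which say whether a gene passed the threshold of the test. Both are part of the description and are no separate evidence for a difference.

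RNA was sequenced from wildtype differentiated adipocytes of the mouse line 3T3-L1, a fibroblast line that turns into fat cells in culture. There were 4 siERK3 libraries, whose cells received siRNA against ERK3, and 4 siNTC libraries, whose cells received a nontargeting control siRNA. Both groups were transfected in the same way, with 1.25 nM siRNA per cm2, and the cells were studied 48 h after transfection. The model is 1 cell line with siRNA bought as a pool, and no source used here says whether the 4 libraries of a group are separate cultures, so the errors measure only the spread between these samples.

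A cell takes up iron through the transferrin receptor, moves it out of endosomes, stores the surplus in ferritin and exports it through ferroportin. Heme oxygenase frees the iron of heme. The iron regulatory proteins, encoded by Aco1 and Ireb2, read the iron level. When iron is scarce they bind a stem-loop in messenger RNAs, the iron-responsive element, which blocks translation when it lies in the 5′ UTR and protects the messenger RNA from decay when it lies in the 3′ UTR. Many messenger RNAs of this pathway are therefore set after transcription, which counts of RNA show only in part. In adipocytes iron serves the mitochondria and is known to bear on adipokine output.

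Iron-responsive elements are shown here because they are a feature that several of these genes share. The GENCODE M21 transcripts (build mm10) were searched on the sense strand for a C, 5 bases, the loop CAGTGN and 5 bases that pair with the first 5, with G-T pairs allowed. A match lay in the 5′ UTR of 3 of the 9 genes, Fth1, Ftl1 and Slc40a1, and in the 3′ UTR of 1, Tfrc, which held 4 matches. Each is printed 5′ to 3′ as the DNA letters of the transcript, with the loop in capitals.
Fth1, 5′ UTR: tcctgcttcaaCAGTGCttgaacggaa
Ftl1, 5′ UTR: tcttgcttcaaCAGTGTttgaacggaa
Slc40a1, 5′ UTR: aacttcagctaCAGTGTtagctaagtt
Tfrc, 3′ UTR, a: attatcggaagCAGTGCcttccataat
Tfrc, 3′ UTR, b: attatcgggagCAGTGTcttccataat
Tfrc, 3′ UTR, c: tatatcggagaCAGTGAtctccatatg
Tfrc, 3′ UTR, d: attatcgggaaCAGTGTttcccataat

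The windows of the ferritin genes Fth1 and Ftl1 differed from each other at 2 of 27 bases, and that of Slc40a1 differed from each of them at 14. In mm10 the Fth1 window lies at chr19:9982733-9982759 on the plus strand, the Ftl1 window at chr7:45459780-45459806 on the minus strand and the Slc40a1 window at chr1:45925466-45925492 on the minus strand. The Tfrc windows a to d lie on the plus strand at chr16:32631220-32631246, chr16:32631599-32631625, chr16:32631664-32631690 and chr16:32631711-32631737. The same search found a match in the 5′ UTR of 25 of 12247 genes of the count table (0.204%) and in the 3′ UTR of 98 of 12395 (0.791%). A match is a description of letters, not a tested site. No match was found in Slc11a2, Slc39a14, Hmox1, Ireb2 or Aco1, which says only that these letters are not in those UTRs. The search also found none in Epas1 or Cdc42bpa, which are named below as known carriers of an element. A gene without a match can therefore still carry one.

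Erk3 is encoded by Mapk6, and its level checks the labels. It was 74.8, 71.6, 68.5 and 63.5 CPM (counts scaled to library size, after TMM) in the siERK3 libraries, against 588, 572, 558 and 599 CPM in the siNTC libraries, a log2 fold change of -3.06. Every siERK3 library was below every siNTC library. Total counts were 9854522 to 9943572 per library. Of 17972 genes tested with the quasi-likelihood test of edgeR, 8745 passed a Benjamini-Hochberg adjusted p of 0.05, which is 48.7%. Of the genes tested 24.9% rose and 23.8% fell after Erk3 silencing, and for 43.2% the levels of the groups did not overlap. Adipocyte markers were abundant in both groups, and all 8 fell (median log2 fold change -0.82). Their summed level was 16741 to 17804 CPM in siERK3 libraries and 29210 to 31476 CPM in siNTC libraries. All 8 interferon-stimulated genes of a marker list rose (median log2 fold change 9.21), to a sum of 2975 to 3130 CPM in siERK3 libraries, against 100 to 109 CPM in siNTC libraries. The part of either in the iron genes was not tested, and less RNA per cell cannot be told apart from fewer cells of a kind.

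Among the 9 genes, Fth1, Ftl1, Slc40a1 and Hmox1 were higher in siERK3 adipocytes and Tfrc, Aco1 and, by a small margin, Slc11a2 were lower. Slc39a14 and Ireb2 did not pass the threshold. That is 4 genes higher, 3 lower and 2 not called, with no overlap between the groups for 6 of the 9, beside the shares of all tested genes given above. Nothing is read from these counts, since the same contrast chose the genes.

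**Figure D1:**
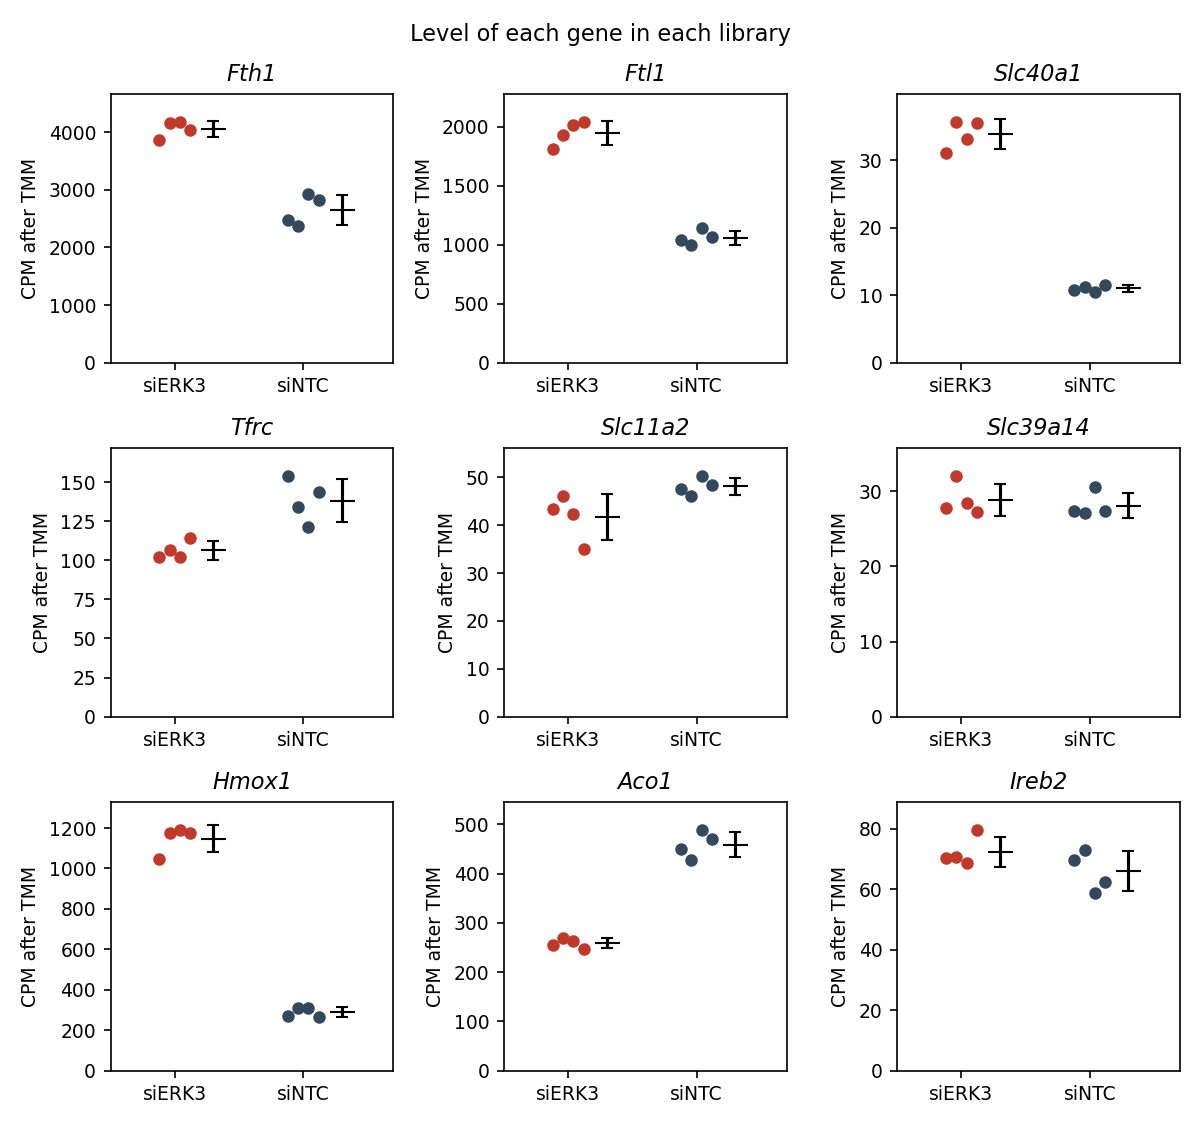
Level of each of the 9 genes in each library, as CPM after TMM on a linear axis from 0. Red points are the 4 siERK3 libraries and dark points the 4 siNTC libraries, with the mean and SD beside them. The points of the groups are apart for Fth1, Ftl1, Slc40a1, Tfrc, Hmox1 and Aco1 and overlap for Slc11a2, Slc39a14 and Ireb2.

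The ferritin heavy chain, which oxidizes iron as it enters the ferritin shell, is encoded by Fth1 (ENSMUSG00000024661, chr19:9980598-9985098, plus strand). Fth1 had 3870, 4158, 4169 and 4042 CPM in siERK3 libraries, against 2475, 2374, 2921 and 2813 CPM in siNTC libraries. The lowest siERK3 library was well above the highest siNTC library. The means were 4060 ± 139 CPM in siERK3 cells and 2646 ± 262 CPM in siNTC cells (SD, n = 4 each), a 1.53-fold difference and a log2 fold change of 0.62 (95% interval 0.49 to 0.74). Fth1 took 0.405% to 0.432% of all counts in siERK3 libraries and 0.233% to 0.282% in siNTC libraries.

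The ferritin light chain, which helps the mineral core to form, is encoded by Ftl1 (ENSMUSG00000050708, chr7:45457944-45459884, minus strand). Ftl1 had 1810, 1928, 2012 and 2035 CPM in siERK3 libraries, against 1038, 994, 1137 and 1065 CPM in siNTC libraries. All siERK3 libraries were above all siNTC libraries by a wide gap. The means were 1946 ± 102 CPM in siERK3 cells and 1059 ± 59.8 CPM in siNTC cells, a 1.84-fold difference and a log2 fold change of 0.88 (95% interval 0.76 to 0.99). The ratio of Fth1 to Ftl1 counts was 1.99 to 2.16 in siERK3 libraries and 2.38 to 2.64 in siNTC libraries, so the balance of the ferritin messenger RNAs was shifted toward the light chain in each siERK3 library.

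Ftl1 has many near-identical copies, and its counts are uncertain to that extent. The row Ftl1-ps1 shares 57.6% of its stretches of 50 bases with Ftl1, holds the same 27 bases as the Ftl1 window above (chr13:74406429-74406455), and had 1128 ± 24.3 CPM in siERK3 cells and 656 ± 37.1 CPM in siNTC cells. Ftl2-ps, which shares 54.3%, had 572 ± 9.46 CPM in siERK3 cells and 341 ± 20.9 CPM in siNTC cells, and Gm15590, which shares 63.2%, had 516 ± 14.97 CPM in siERK3 cells and 305 ± 9.96 CPM in siNTC cells. These rows moved the same way as Ftl1, with log2 fold changes of 0.78 for Ftl1-ps1, 0.75 for Ftl2-ps and 0.76 for Gm15590. Ftl1-ps2 had 44.2 ± 1.95 CPM in siERK3 cells and 28.6 ± 3.28 CPM in siNTC cells. Despite its name, Ftl1-ps1 is annotated as protein coding, while Ftl2-ps and Ftl1-ps2 are annotated as processed pseudogenes. Ftl1 itself made up 51.0% to 54.5% of the counts of Ftl1 and its named pseudogenes in siERK3 libraries and 50.6% to 50.9% in siNTC libraries. This share leaves out Gm15590 and the overlapping genes named below, and would be lower with them counted. With the counts of Ftl1 and its named pseudogenes summed, the log2 fold change was 0.82. With every row sharing over 50% of its 50-base stretches summed, an alternative chosen after seeing the data, it was 0.84. Ftl1 also overlaps Gm22133 on its own strand and Gm10252 on the other strand, and the library kit does not mark the strand, so their reads cannot be told apart from those of Ftl1. Gm22133 had 719 to 858 CPM in siERK3 libraries and 385 to 435 CPM in siNTC libraries. Gm10252 had 719 to 797 CPM in siERK3 libraries and 410 to 480 CPM in siNTC libraries. For the heavy chain, the row Fth-ps3 had 66.5 ± 4.95 CPM in siERK3 cells and 43.3 ± 4.16 CPM in siNTC cells, a log2 fold change of 0.62, and the sum with Fth1 left the heavy chain at 0.62.

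Slc40a1 (chr1:45908068-45926523, minus strand) encodes ferroportin, the exporter of iron. It had 31.0, 35.6, 33.2 and 35.6 CPM in siERK3 libraries, against 10.7, 11.3, 10.4 and 11.6 CPM in siNTC libraries. The lowest siERK3 library lay far above the highest siNTC library, on 321 to 361 counts in siERK3 libraries and 100 to 110 counts in siNTC libraries. The means were 33.9 ± 2.22 CPM in siERK3 cells and 10.999 ± 0.511 CPM in siNTC cells, a 3.08-fold difference and a log2 fold change of 1.62 (95% interval 1.45 to 1.79).

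The transferrin receptor, which brings iron-loaded transferrin into the cell, is encoded by Tfrc (chr16:32608920-32632794, plus strand). Tfrc had 102, 107, 102 and 115 CPM in siERK3 libraries, against 154, 134, 121 and 144 CPM in siNTC libraries. The highest siERK3 library was just below the lowest siNTC library. The means were 106 ± 5.88 CPM in siERK3 cells and 138 ± 13.9 CPM in siNTC cells, which is 0.770 times the siNTC level and a log2 fold change of -0.38 (95% interval -0.51 to -0.24).

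Slc11a2 (chr15:100387898-100425072, minus strand) encodes DMT1, which carries ferrous iron across the endosomal membrane. It had 43.3, 46.1, 42.3 and 35.0 CPM in siERK3 libraries, against 47.6, 46.1, 50.2 and 48.5 CPM in siNTC libraries. The groups met at siERK3 replicate 2 and siNTC replicate 2, and siERK3 replicate 4 was the lowest of all. The means were 41.7 ± 4.73 CPM in siERK3 cells and 48.1 ± 1.73 CPM in siNTC cells, a log2 fold change of -0.21 (95% interval -0.35 to -0.06). Without siERK3 replicate 4 the log2 fold change of Slc11a2 was -0.13, and with library sizes alone as the scaling it was -0.12. In both cases the gene was no longer called. Its exons share bases with a gene on the other strand, Gm5475, whose reads cannot be told apart from its own.

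Slc39a14 (chr14:70303469-70351425, minus strand) encodes ZIP14, a carrier of iron that is not bound to transferrin. It had 27.8, 32.0, 28.4 and 27.3 CPM in siERK3 libraries, against 27.4, 27.1, 30.6 and 27.3 CPM in siNTC libraries. The groups overlapped over nearly their whole range, and 1 library of each stood above its other 3. The log2 fold change was 0.04 (95% interval -0.11 to 0.19). This interval leaves room for a small difference either way.

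Hmox1 (chr8:75093621-75100589, plus strand) encodes heme oxygenase 1, the inducible enzyme that opens the heme ring and frees its iron. It had 1048, 1175, 1189 and 1176 CPM in siERK3 libraries, against 270, 312, 308 and 264 CPM in siNTC libraries. The groups were far apart, and the first siERK3 library was the lowest of its group. The means were 1147 ± 66.1 CPM in siERK3 cells and 288 ± 25.0 CPM in siNTC cells, a 3.98-fold difference and a log2 fold change of 1.99 (95% interval 1.86 to 2.12). Of the 9 genes Hmox1 had the highest fold.

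Aco1 (chr4:40143081-40198338, plus strand) encodes iron regulatory protein 1, which is a cytosolic aconitase while it holds an iron-sulfur cluster. It had 255, 269, 264 and 246 CPM in siERK3 libraries, against 450, 428, 488 and 469 CPM in siNTC libraries. All siERK3 libraries were far below all siNTC libraries. The means were 259 ± 10.1 CPM in siERK3 cells and 459 ± 25.6 CPM in siNTC cells, which is 0.564 times the siNTC level and a log2 fold change of -0.83 (95% interval -0.94 to -0.72).

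Ireb2 (chr9:54863789-54912530, plus strand) encodes iron regulatory protein 2, which is known to be controlled mainly through its breakdown. It had 70.3, 70.6, 68.7 and 79.5 CPM in siERK3 libraries, against 69.8, 73.0, 58.9 and 62.4 CPM in siNTC libraries. The groups overlapped, and 2 siNTC libraries lay below all siERK3 libraries. The log2 fold change was 0.13 (95% interval -0.01 to 0.27) and was not called. Without the second siNTC library the log2 fold change of Ireb2 was 0.18, and with library sizes alone it was 0.22, and in both cases it was called. The ratio of Aco1 to Ireb2 counts was 3.09 to 3.84 in siERK3 libraries and 5.86 to 8.29 in siNTC libraries, with no overlap.

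**Figure D2:**
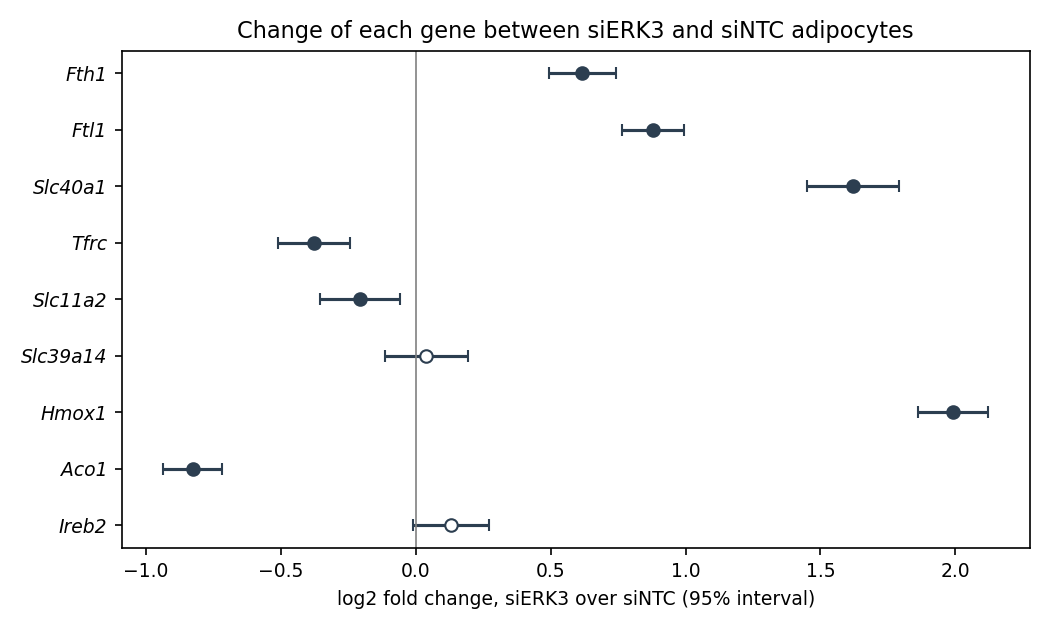
Log2 fold change of each of the 9 genes, siERK3 over siNTC, with 95% intervals from the fit over all genes. Filled points passed the threshold and open points did not, and values right of 0 are higher in siERK3. The intervals and calls are a description only, since the same contrast chose the genes. Hmox1 at 1.99 and Slc40a1 at 1.62 lie farthest to the right and Aco1 at -0.83 farthest to the left.

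Levels of different genes can be compared only per length. In CPM per kilobase of exon, the siERK3 cells held Ftl1 at 1452, Fth1 at 1170, Hmox1 at 655, Aco1 at 57.5, Tfrc at 17.2, Ireb2 at 7.63, Slc11a2 at 6.56, Slc40a1 at 3.76 and Slc39a14 at 2.74. In this order only Ireb2 and Slc11a2 overlapped between neighbours. In siNTC cells the order was Ftl1 at 790, Fth1 at 763, Hmox1 at 165, Aco1 at 102, Tfrc at 22.3, Slc11a2 at 7.57, Ireb2 at 6.96, Slc39a14 at 2.66 and Slc40a1 at 1.22, with overlap between Ftl1 and Fth1 and between Slc11a2 and Ireb2. The order of some neighbours, the ferritin genes among them, depends on the length used. The Fth1 exons of all transcripts together span 3469 bases and its first annotated transcript 929. With the length of the first annotated transcript of each gene, an alternative chosen after seeing the data, Fth1 came first, at 4370 in siERK3 cells and 2848 in siNTC cells, and Ftl1 had 2011 in siERK3 cells and 1094 in siNTC cells. With that length Slc40a1 came last in siERK3 cells too, at 10.05, below Slc39a14 at 13.8.

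**Figure D3:**
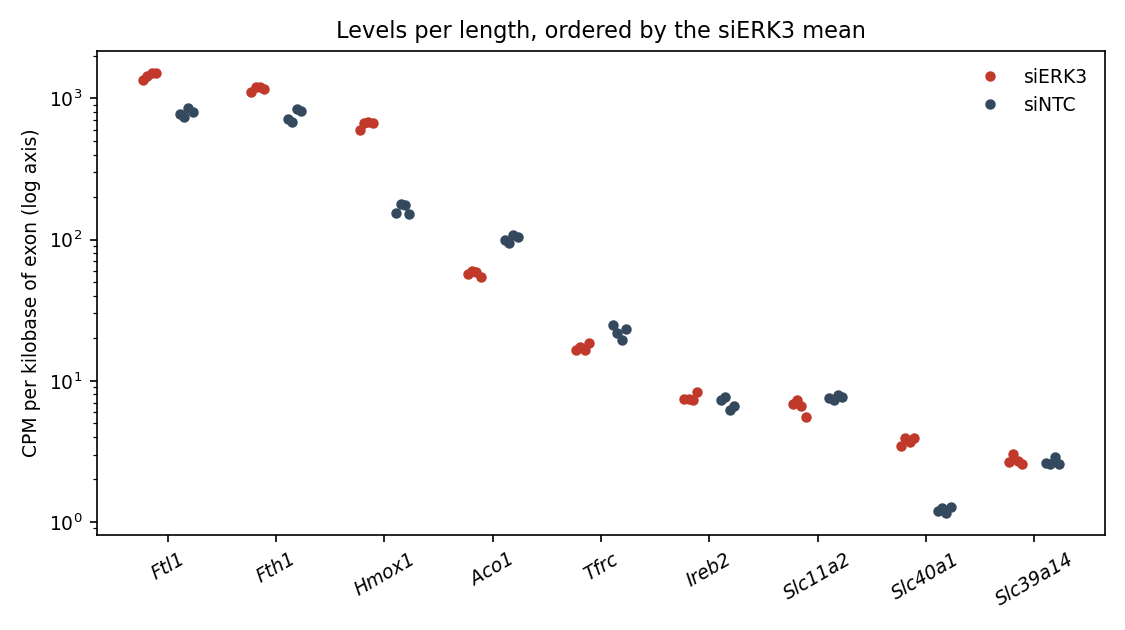
Level of the 9 genes per kilobase of exon in each library, on a log axis, ordered by the siERK3 mean. Red points are siERK3 libraries and dark points siNTC libraries. The genes span from 1452 for Ftl1 in siERK3 cells to 1.22 for Slc40a1 in siNTC cells.

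The other genes of the pathway were taken from 8 lists written from textbook roles, with earlier results of these data known. Their counts and p-values are therefore a description and no separate evidence. Of their 86 tested genes, 28 rose and 23 fell (59.3% called, against 48.7% of all genes tested), with a median log2 fold change of -0.004. With upper-quartile scaling 20 rose and 31 fell, and with library sizes alone 33 rose and 19 fell, so the split between directions depends on the scaling. The p-values are adjusted over all genes tested with the quasi-likelihood test of edgeR, and each change of these genes is a log2 fold change. Over all genes tested, 24.9% rose and 23.8% fell, which are the shares to set beside the count of each list below.

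Of 13 other genes of uptake, reduction and export, 4 rose, 4 fell and 5 did not pass, with a median log2 fold change of -0.01. Ceruloplasmin (Cp), the ferroxidase that works with ferroportin, rose to 73.9 ± 3.55 CPM in siERK3 cells, against 47.3 ± 6.46 CPM in siNTC cells (log2 fold change 0.64, edgeR adjusted p 1.58e-07). Lcn2, which binds bacterial iron carriers, rose with a log2 fold change of 2.69 from a low level, at 4.94 CPM in siERK3 cells and 0.756 CPM in siNTC cells. Slc11a1, the phagosomal metal carrier of macrophages, had 5.19 CPM in siERK3 cells and 2.32 CPM in siNTC cells (log2 fold change 1.16), and the reductase Steap2 rose by 0.37 near the threshold (edgeR adjusted p 0.0484). The genes that fell were transferrin itself (Trf, log2 fold change -1.01, at 2.91 CPM in siERK3 cells and 5.87 CPM in siNTC cells), the second transferrin receptor Tfr2 (-1.55), the protease Tmprss6 (-0.60) and the reductase Steap4 (-0.35). Among genes not called, Lrp1, which takes up heme bound to hemopexin, stood at -0.07 and the endosomal reductase Steap3 at 0.12. With only genes over 5 CPM in at least 4 libraries, 1 gene of this list rose and 1 fell, since most of the called genes lie below that level. Of 9 macrophage markers 3 were among the genes analysed here, of which Cd14 and Cd68 rose and Csf1r did not pass, with a summed level of 20.4 to 25.0 CPM in siERK3 libraries and 9.89 to 14.5 CPM in siNTC libraries. Ptprc, Adgre1, Lyz2, Itgam, Mrc1 and Cd163 had no row in the count table used here. The part of macrophage-like RNA in Slc11a1 and Lcn2 was not tested. All 3 preadipocyte markers analysed here fell, with a median of -1.81.

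Of 3 other genes of ferritin turnover and iron chaperones, 2 fell and 0 rose, with a median log2 fold change of -0.42. Ncoa4, the receptor that delivers ferritin to lysosomes for breakdown, fell to 59.8 ± 2.54 CPM in siERK3 cells, against 104 ± 8.48 CPM in siNTC cells (log2 fold change -0.80, edgeR adjusted p 1.84e-10). The chaperone Pcbp2, which hands iron to ferritin and ferroportin, fell to 228 CPM in siERK3 cells, against 305 CPM in siNTC cells (-0.42), and its relative Pcbp1 stood at -0.08 and did not pass. Of 3 genes that turn over the iron regulatory proteins, 2 rose and 0 fell. With upper-quartile scaling, and likewise without siNTC replicate 3, 1 gene of this list was called lower. Fbxl5, the iron-sensing subunit that marks iron regulatory protein 2 for breakdown, had 98.1 CPM in siERK3 cells and 79.3 CPM in siNTC cells (log2 fold change 0.31, edgeR adjusted p 5.29e-05), and the ligase subunit Skp1a rose by 0.25 while Cul1 stood at -0.09 and did not pass.

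Heme synthesis genes mostly fell: of 12 genes 7 fell, 1 rose and 4 did not pass, with a median log2 fold change of -0.25. Alas1, the rate-limiting first enzyme, fell to 150 ± 1.93 CPM in siERK3 cells, against 215 ± 10.5 CPM in siNTC cells (log2 fold change -0.52, edgeR adjusted p 9.82e-09). Alad, the second enzyme, fell by 0.30 and Fech, which inserts the iron, by 0.19 on the log2 scale. The mitochondrial carrier Abcb10 fell by 0.33. Cpox was the gene that rose, by 0.24 at an edgeR adjusted p of 0.0488, and it was no longer called with DESeq2, with 2 other scalings or with most single libraries left out. Urod, at -0.13, and Abcb6, at 0.14, did not pass. Erythroid markers were low in both groups: 2 of 8, Alas2 and Epor, were among the genes analysed here, with a summed level of 4.85 to 6.67 CPM in siERK3 libraries and 7.02 to 8.14 CPM in siNTC libraries.

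Heme breakdown and transport split between the directions. Of 11 genes besides Hmox1, 5 rose, 3 fell and 3 did not pass, with a median log2 fold change of 0.007. The biliverdin reductases, which act just after heme oxygenase, both rose: Blvra by 0.60, with 31.0 CPM in siERK3 cells and 20.4 CPM in siNTC cells, and Blvrb by 0.41, with 48.0 CPM in siERK3 cells and 36.3 CPM in siNTC cells (edgeR adjusted p 2.00e-06 and 1.53e-05). Slc48a1, a heme carrier of endosomes and lysosomes, rose to 324 ± 13.4 CPM in siERK3 cells, against 190 ± 12.2 CPM in siNTC cells (log2 fold change 0.77, edgeR adjusted p 4.08e-11), and the heme-binding protein Pgrmc1 rose by 0.20. The fifth gene that rose was hemopexin (Hpx), the plasma scavenger of heme, named after its values were seen: it had 10.9 CPM in siERK3 cells and 1.72 CPM in siNTC cells, a log2 fold change of 2.65. Haptoglobin (Hp), the scavenger of free hemoglobin, fell by 0.64, with 163 CPM in siERK3 cells and 253 CPM in siNTC cells, and Slc46a1, a folate carrier that also moves heme, fell (-0.58), as did Flvcr2 (-1.36). The constitutive heme oxygenase Hmox2, at 0.007, and Pgrmc2, at 0.001, did not pass.

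Of 30 genes of mitochondrial iron import and iron-sulfur cluster assembly, 9 rose, 5 fell and 16 did not pass, with a median log2 fold change of 0.01. Isca1, an assembly factor for clusters of the later mitochondrial step, fell to 65.8 ± 2.60 CPM in siERK3 cells, against 146 ± 8.19 CPM in siNTC cells (log2 fold change -1.15, edgeR adjusted p 3.28e-14). Glrx5, which carries clusters, and Cisd1, a cluster protein of the outer mitochondrial membrane, both fell by 0.51, and Ndor1 fell by 0.20. The 4 most abundant of the genes that rose were the chaperone Hspa9 (0.16), Lyrm4 (0.18), Mms19 (0.15) and Ciapin1 (0.20). The desulfurase Nfs1, at -0.11, did not pass. With upper-quartile scaling 3 genes of this list rose and 9 fell, and without the second siNTC library 5 rose.

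Of 5 other genes whose messenger RNAs are known to carry an iron-responsive element, 2 fell, 0 rose and 3 did not pass, with a median log2 fold change of -0.05. Alas2, the erythroid first enzyme of heme synthesis, fell at a low level, with 3.20 CPM in siERK3 cells and 4.93 CPM in siNTC cells (log2 fold change -0.62, edgeR adjusted p 0.00409). It is also counted among the heme synthesis genes that fell, so the lists share this gene. Epas1, at 0.07, and Cdc42bpa, at 0.08, did not pass. The element of Alas2 is shown to set it beside those of ferritin above, in mm10 at chrX:150547459-150547485 on the plus strand, with the loop in capitals.
Alas2, 5′ UTR: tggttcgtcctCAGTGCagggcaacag

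Across all genes with such a match in the 5′ UTR, 21 were tested besides the 3 members and Ftl1-ps1, and of these 6 rose and 7 fell, with a median log2 fold change of 0.008. Of 96 genes besides Tfrc with a match in the 3′ UTR, 30 rose and 26 fell, with a median of 0.002. Over all genes tested 24.9% rose and 23.8% fell, and the median was 0.001.

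Of 10 genes of the NRF2 and BACH1 list outside the 9, 7 rose, 1 fell and 2 did not pass, with a median log2 fold change of 0.73. Among all genes tested, the shares were 24.9% higher and 23.8% lower. NRF2 is a transcription factor that is known to induce ferritin, ferroportin and heme oxygenase genes, and BACH1 is a heme-sensing repressor of the same genes. The part of either in the changes described here was not tested. Nqo1, a quinone reductase and classical NRF2 target, rose to 63.7 ± 4.90 CPM in siERK3 cells, against 20.9 ± 0.963 CPM in siNTC cells (log2 fold change 1.60, edgeR adjusted p 3.70e-15). The sulfiredoxin Srxn1 rose by 0.98 and the glutathione synthesis subunit Gclm by 0.77. Keap1, the inhibitor of NRF2, rose by 0.47, so the list holds a gene that acts the other way. Txnrd1, a thioredoxin reductase, fell by 0.19, with 62.2 CPM in siERK3 cells and 71.1 CPM in siNTC cells. No gene of this list was called lower with library sizes alone or without siNTC replicate 3. The genes of NRF2 and BACH1 themselves did not pass, with Nfe2l2 at -0.04 and Bach1 at 0.11. These are RNA levels, and the protein or activity of either was not measured in these libraries.

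**Figure D4:**
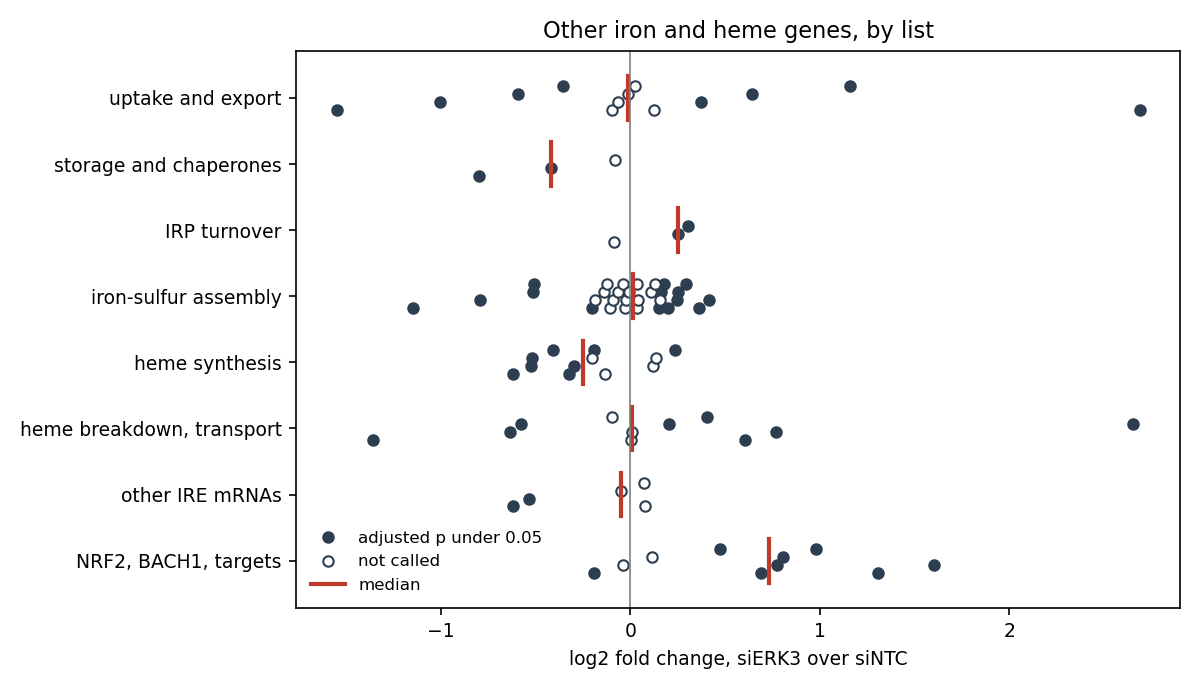
Tested genes of the 8 lists other than the 9 genes, 1 point per gene, by log2 fold change (siERK3 over siNTC). Filled points passed the threshold, open points did not, and the red bar is the median of the list. The median is 0.73 for the NRF2 and BACH1 list, -0.25 for heme synthesis and 0.01 for iron-sulfur assembly.

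RefSeq promoter sequences (GRCm38.p6, 250 bases before to 50 after the start) were held for 5 of the 9 genes, Fth1, Ftl1, Tfrc, Ireb2 and Aco1, with 7 promoters in all. The antioxidant response motif TGACNNNGC, searched on both strands, was in 0 of these 7 windows and in 14.1% of 13429 promoters of the table. This says only that these letters are not in these windows.

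Among the 1920 genes that averaged 100 CPM or more, the 5 whose profile over the 8 libraries was most like that of Fth1, by the root mean square difference of log2 levels centred on the siNTC mean, were Gabarapl1 (0.0468), Gpx4-ps2 (0.0503), Pgd (0.0557), Cst3 (0.0576) and Selenof (0.0646). Gabarapl1 encodes an autophagosome protein, Pgd an enzyme of the pentose phosphate pathway, Cst3 the protease inhibitor cystatin C and Selenof a selenoprotein of the endoplasmic reticulum, while Gpx4-ps2 is a pseudogene row. Gabarapl1 had 137 ± 5.53 CPM in siERK3 cells and 88.1 ± 6.91 CPM in siNTC cells. Ftl1 ranked 160 in this likeness, at a difference of 0.19.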

How the data were processed

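The authors deposited raw counts per gene for the 8 libraries. The submitters' processing notes list mm10 as the build, with Bowtie2, bcl2fastq, FastQC and edgeR as tools. Which program counted the reads, with what annotation and strand setting, is not given in the sources used here. Their second table (log2 fold change, average log2 CPM, p-value and adjusted p-value of their comparison) was not used. The test was run in edgeR 4.0.16 under R 4.3.3 (TMM, filterByExpr defaults, quasi-likelihood test of siERK3 against siNTC, no covariate), with p-values adjusted by Benjamini-Hochberg over 17972 genes. Replicates of a group differed by more than sampling noise, the chi-square per gene lying between 1.95 and 8.10 in 12 pairs, and the common biological coefficient of variation was 6.08%. Counts of reads without molecular identifiers carry counting error plus this spread. Positions, lengths and UTRs come from GENCODE M21, and copies were found as shared stretches of 50 bases.

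The 9 genes and all lists were chosen with earlier results of these data known. Named besides them were Mapk6, ferritin pseudogene rows, the 5 genes most like Fth1 and, per list, up to 4 called genes per direction and 2 uncalled ones by mean CPM, of which a few are not reported here. Alternatives were DESeq2 1.42.0, limma-voom (limma 3.58.1), RLE and upper-quartile factors, library sizes alone, no filter, only genes over 5 CPM in 4 or more libraries, a replicate block and leaving out each library.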

Additional observations from a re-analysis of the deposited data

Results flagged for a closer look

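In 7 of 130 groups of 4 libraries screened, 1 library lay apart from the other 3, and chance gives about 1 in 20. Of the 9 genes, Hmox1 had 1048 CPM in siERK3 replicate 1, below 1175 to 1189 CPM in the other siERK3 libraries, and Slc39a14 had 30.58 CPM in siNTC replicate 3, above 27.06 to 27.39 CPM in the other siNTC libraries. In siERK3 libraries, Fbxl5 had 105.8 CPM in replicate 4 (others 94.37 to 96.14), Mms19 had 55.65 CPM in replicate 1 (others 57.23 to 57.46) and Isca1 had 69.69 CPM in replicate 2 (others 64.34 to 64.88). Epas1 had 190 CPM in siERK3 replicate 3 (others 179.9 to 181.4). Slc48a1 had 207.9 CPM in siNTC replicate 3 (others 181.4 to 185.7).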

How the results depend on the processing

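Fth1, Ftl1, Slc40a1, Tfrc, Hmox1 and Aco1 kept their direction and call under every alternative run, with log2 fold changes of 0.55 to 0.70 for Fth1, 0.81 to 0.97 for Ftl1, 1.55 to 1.71 for Slc40a1, -0.45 to -0.29 for Tfrc, 1.92 to 2.08 for Hmox1 and -0.90 to -0.74 for Aco1. These runs reuse the libraries from which the genes were chosen. They show only how the values depend on the processing and are no separate evidence for a difference. Slc39a14, never called, turned to -0.0304 with upper-quartile factors and ranged from -0.0123 (without siERK3 replicate 2) to 0.0825 with 1 library left out. The cause was not tested. Upper-quartile factors shifted the median of all genes by -0.07 and gave 3556 genes higher and 5394 lower, and library sizes alone shifted it by 0.09 and gave 5849 higher and 3139 lower, against 4470 and 4275 with TMM. With library sizes alone, 5 of the 9 genes were higher and 2 lower. Leaving out 1 library gave 4117 to 4350 genes higher and 3839 to 4131 lower, 4 to 5 of the 9 genes higher and 2 to 3 lower, and 23 to 28 list genes higher and 22 to 23 lower. The ratio of Fth1 to Ftl1 per length was 0.807 in siERK3 cells and 0.964 in siNTC cells over all exons and 2.18 in siERK3 cells and 2.60 in siNTC cells with the first annotated transcript, because the lengths differ. Same-numbered libraries did not deviate together over all genes (r of 0.012, -0.0005, 0.055 and -0.016). Small correlations cannot show whether they shared a culture or a transfection, which no source used here states. With the replicate number as a block, 4501 genes were higher and 4292 lower, 4 and 3 of the 9 genes, and 27 and 24 of the list genes. Genes below about 5 CPM rest on few counts.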
